A study of Homo sapiens with 20 samples.

Results

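The small nucleolar RNA (snoRNA) host genes were described in human pancreatic progenitors (PPs) and islet-like organoids (hILOs) with and without ALKBH5, the enzyme that removes m6A from RNA. They were taken by name: every symbol that begins with SNHG, plus GAS5, ZFAS1, DANCR, EPB41L4A-AS1, TAF1D and NOP56. This gave 34 genes of 60623 listed for PPs and 34 of 60624 listed for hILOs.

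A snoRNA host gene makes a spliced transcript whose introns are trimmed to snoRNAs, while the exons are joined into a messenger RNA or a long noncoding RNA (lncRNA). Box C/D snoRNAs guide 2′-O-methylation of ribosomal RNA, box H/ACA snoRNAs guide pseudouridylation, and the related scaRNAs guide the same changes on spliceosomal RNAs. Many hosts begin with a run of pyrimidines like that of ribosomal protein mRNAs. Spliced noncoding hosts such as GAS5 are known targets of nonsense-mediated decay, which couples their loss to translation. Actinomycin D (Act D) blocks transcription, so that RNA levels after its addition follow decay.

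All cells came from MEL1, an established human embryonic stem cell line, which the study used as the INS-GFP/W reporter line, with GFP driven by the endogenous insulin promoter. The knockout line, A5-KO, carries indels made by CRISPR-Cpf1 with crRNAs against exon 1 of ALKBH5, in lines grown from picked colonies; how many clones lie behind the libraries was not given in the sources used here. PPs of each genotype (WT and A5-KO) received Act D at 1 μg/ml for 0, 1, 2 or 3 h, with 2 libraries for each genotype and time and 16 in all. The hILOs received no Act D and were sequenced as 2 WT and 2 A5-KO libraries.

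PP values were CPM, the reads of a gene as a share of its library, with between 30516384 and 35206514 reads behind each library. Because CPM is a share, a host lost at the same pace as the rest keeps its CPM under Act D and a host lost more slowly gains CPM. The hILO values were TPM, a share that is also divided by gene length and that keeps no depth. ALKBH5 read 149 and 172 CPM in WT PPs at 0 h against 19.1 and 18.8 CPM in A5-KO PPs, and at 78.8 and 81.9 TPM against 4.16 and 3.42 TPM in hILOs. PPs had 6 of 7 progenitor markers averaging 1 CPM or more at 0 h, with INS and GCG at 0, and hILOs had 8 of 8 endocrine markers averaging 1 TPM or more. The summed level of 4 pluripotency markers at 0 h was 121 to 124 CPM in WT and 234 to 248 CPM in A5-KO PPs, that of 5 hepatocyte markers 1008 to 1057 CPM and 1737 to 1780 CPM, and that of 5 mesenchyme markers 32.6 to 34.0 CPM and 78.1 to 86.4 CPM. In hILOs the 8 endocrine markers summed to 34702 to 37048 TPM in WT and 26735 to 27942 TPM in A5-KO. The 5 hepatocyte markers in hILOs summed to 12037 to 12364 TPM in WT and 13191 to 13545 TPM in A5-KO. For 4 intestinal markers in hILOs the sums were 2051 to 2108 TPM in WT and 2302 to 2380 TPM in A5-KO. The part of these differences in the host gene results was not tested. In bulk samples, fewer cells of a type and less RNA per cell cannot be told apart.

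The hosts differed in the snoRNAs they hold and in how their RNA begins. By the names of the snoRNA genes inside each span, 12 members held box C/D snoRNAs only, 16 held box H/ACA snoRNAs or scaRNAs only, 5 held both and SNHG28 held none that was listed. RefSeq start sites on GRCh38.p14 were matched for 30 of the 34 members. A start with C at the first base, followed by C or T at each of the next 4 or more bases, was found at 8 of these 30 starts (26.7%). The same run was found at 4.07% of all 35116 RefSeq starts and at 66.2% of those of 65 cytosolic ribosomal protein genes. The strand of the transcript was read. The sequences of 8 hosts follow because they show both kinds of start among hosts that were called lower under Act D and hosts that were not. Each runs from 20 bases before the annotated start through its first 30 bases, and capitals mark the unbroken run of C and T from the first base where that base is C.
SNHG12, chr1:28581844-28581893, minus strand: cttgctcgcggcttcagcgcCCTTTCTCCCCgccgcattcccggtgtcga
SNHG4, chr5:139274081-139274130, plus strand: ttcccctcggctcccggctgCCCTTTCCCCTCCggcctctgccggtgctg
SNHG19, chr16:2155329-2155378, minus strand: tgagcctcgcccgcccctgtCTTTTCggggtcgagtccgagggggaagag
SNHG5, chr6:85678704-85678753, minus strand: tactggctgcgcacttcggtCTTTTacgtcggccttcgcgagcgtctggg
SNHG17, chr20:38435299-38435348, minus strand: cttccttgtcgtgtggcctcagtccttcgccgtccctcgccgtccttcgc
SNHG30, chr17:35568094-35568143, plus strand: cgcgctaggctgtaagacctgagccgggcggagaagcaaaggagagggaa
SNHG16, chr17:76557744-76557793, plus strand: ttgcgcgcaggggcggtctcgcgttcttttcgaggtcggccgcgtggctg
DANCR, chr4:52712374-52712423, plus strand: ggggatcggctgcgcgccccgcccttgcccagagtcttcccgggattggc
SNHG12, SNHG4, SNHG19 and SNHG5 have the run; the first pair was called lower under Act D in at least 1 genotype and the second pair was not. SNHG17 and SNHG30 were called lower and have no run at the annotated start, and SNHG16 and DANCR have none and were not called lower. An annotated start need not be the one used in these cells.

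In PPs, 25 of the 34 members averaged 1 CPM or more over the 16 libraries and were tested. By reads rather than by length, SNHG29 led with a mean of 485 CPM, followed by GAS5, SNHG1, NOP56, SNHG16, SNHG14, SNHG7, DANCR, TAF1D and SNHG8. Means of the other tested members ran from 82.6 CPM for SNHG6 to 1.97 CPM for SNHG26. The remaining members, SNHG9, SNHG18, SNHG21, SNHG22, SNHG25, SNHG27, SNHG28, SNHG31 and SNHG32, had means from 0 to 0.754 CPM and were not tested. SNHG26 lay just inside the limit of 1 CPM and SNHG9 just outside it.

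In the first hour of Act D, 6 of the 25 hosts fell in WT PPs: SNHG20, SNHG15, SNHG17, SNHG12, SNHG10 and TAF1D, in order of the change. The other 19 were not called, among them GAS5, SNHG1 and SNHG29, which stood at 111% to 112% of their level at 0 h. A host was called when its Benjamini-Hochberg adjusted p, over all 13620 genes tested with limma, was below 0.05 and its change exceeded 1.5-fold. Of all genes tested, 15.4% were called lower and 0.301% higher by the same rule. No host was called higher, with 3 higher at an unadjusted p below 0.05 and 1, SNHG19, called by edgeR and by DESeq2 on the recovered reads. Of the 13620 genes, 661 were higher at that unadjusted limit in limma. The median log2 change was -0.05 for the hosts and -0.13 for all genes.

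SNHG15, the host of SNORA9, was among the hosts lost fastest. In WT PPs SNHG15 was at 38.9 and 34.4 CPM at 0 h, 12.4 and 9.66 CPM at 1 h, 9.24 and 14.2 CPM at 2 h and 16.9 and 18.8 CPM at 3 h. The A5-KO values were 44.7 and 37.0 CPM at 0 h, 13.8 and 17.0 CPM at 1 h, 8.73 and 8.91 CPM at 2 h and 9.88 and 8.19 CPM at 3 h. Both genotypes had lost most of it at 1 h, where WT stood at 30.04% and A5-KO at 37.7% of the level at 0 h. On the log2(CPM + 0.1) scale used for every PP time comparison, the change was -1.73 (standard error 0.20, adjusted p = 3.01e-05) in WT and -1.40 (standard error 0.20, adjusted p = 0.000138) in A5-KO. From there the genotypes went apart: in WT both 3 h libraries were above both 2 h libraries, and in A5-KO they stayed at the 2 h level. At 3 h WT stood at 48.8% and A5-KO at 22.1% of 0 h. The turn in WT was not particular to SNHG15. Each other host called lower in WT at 1 h also stood nearer its 0 h level at 3 h, SNHG17 at 33.6% and then 52.6%. Over all genes, 2100 were called lower in WT at 1 h and 1276 at 3 h, against 2326 and 4358 in A5-KO. What set the WT libraries at 3 h nearer 0 h was not tested.

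SNHG17, which holds the SNORA71 snoRNAs, followed a course like it and was added here after its values were seen. In WT PPs SNHG17 was at 25.7 and 21.5 CPM at 0 h, 8.03 and 7.81 CPM at 1 h, 7.32 and 11.3 CPM at 2 h and 10.5 and 14.3 CPM at 3 h. A5-KO PPs gave 24.4 and 25.4 CPM at 0 h, 10.3 and 11.1 CPM at 1 h, 8.29 and 6.65 CPM at 2 h and 7.47 and 6.99 CPM at 3 h. Each library at 1 h was below every library at 0 h of its genotype, and the change to 1 h was -1.56 (standard error 0.20, adjusted p = 7.98e-05) in WT and -1.21 (standard error 0.20, adjusted p = 0.000446) in A5-KO.

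TAF1D encodes a subunit of the selectivity factor of RNA polymerase I and had the most reads of the hosts that fell in the first hour. In WT PPs TAF1D was at 132 and 122 CPM at 0 h, 82.9 and 83.0 CPM at 1 h, 78.2 and 67.8 CPM at 2 h and 93.9 and 115 CPM at 3 h. In A5-KO PPs it was at 149.7 and 132 CPM at 0 h, 85.3 and 87.3 CPM at 1 h, 68.8 and 75.6 CPM at 2 h and 79.8 and 76.8 CPM at 3 h. The log2 change to 1 h was -0.61 (standard error 0.11, adjusted p = 0.000611) in WT and -0.70 (standard error 0.11, adjusted p = 0.000214) in A5-KO. These changes lie near the limit of 1.5-fold. With the CPM scaled to the median gene, or with edgeR or DESeq2, they stayed below it: -0.47 in WT and -0.54 in A5-KO under median-of-ratios scaling. As for SNHG15, both WT libraries at 3 h were above both at 2 h. In WT the call at 1 h was also lost without WT 0 h replicate 1.

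The other hosts that fell in the first hour of WT had few reads, and they too were chosen here by their calls. SNHG12 went from 9.56 and 10.3 CPM to 2.37 and 5.33 CPM, a log2 change of -1.45 (standard error 0.27, adjusted p = 0.00134). SNHG10 went from 9.01 and 8.49 CPM to 4.26 and 3.64 CPM, a change of -1.13 (standard error 0.24, adjusted p = 0.00282). SNHG20 went from 5.51 and 4.49 CPM to 1.26 and 1.204 CPM, a change of -1.93 (standard error 0.47, adjusted p = 0.00748). All these libraries at 1 h were below those at 0 h, and between 28 and 441 reads lay behind each of their values in the 16 PP libraries. The call for SNHG20 was lost without WT 0 h replicate 1.

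In A5-KO PPs the first hour gave 5 of the same hosts: SNHG15, SNHG17, SNHG12, SNHG10 and TAF1D. Over all genes 17.1% were called lower and 1.37% higher in A5-KO. No host was called higher in limma, edgeR or DESeq2, with 3 higher at an unadjusted p below 0.05 in limma. At that unadjusted limit 1470 of 13620 genes were higher. SNHG20 had a log2 change of -1.02 (standard error 0.47, adjusted p = 0.109). Without A5-KO 0 h replicate 1, 3 hosts were called, since SNHG10 and SNHG12 were not. No host was called in the difference between the genotypes from 0 to 1 h, where 0% of all genes were called lower and 0.235% higher. At an unadjusted p below 0.05, 1 host was lower and 0 were higher, and DESeq2 and edgeR on the recovered reads also called 0 hosts. Of 13620 genes, 523 were lower and 679 higher at that unadjusted limit in limma.

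**Figure D1:**
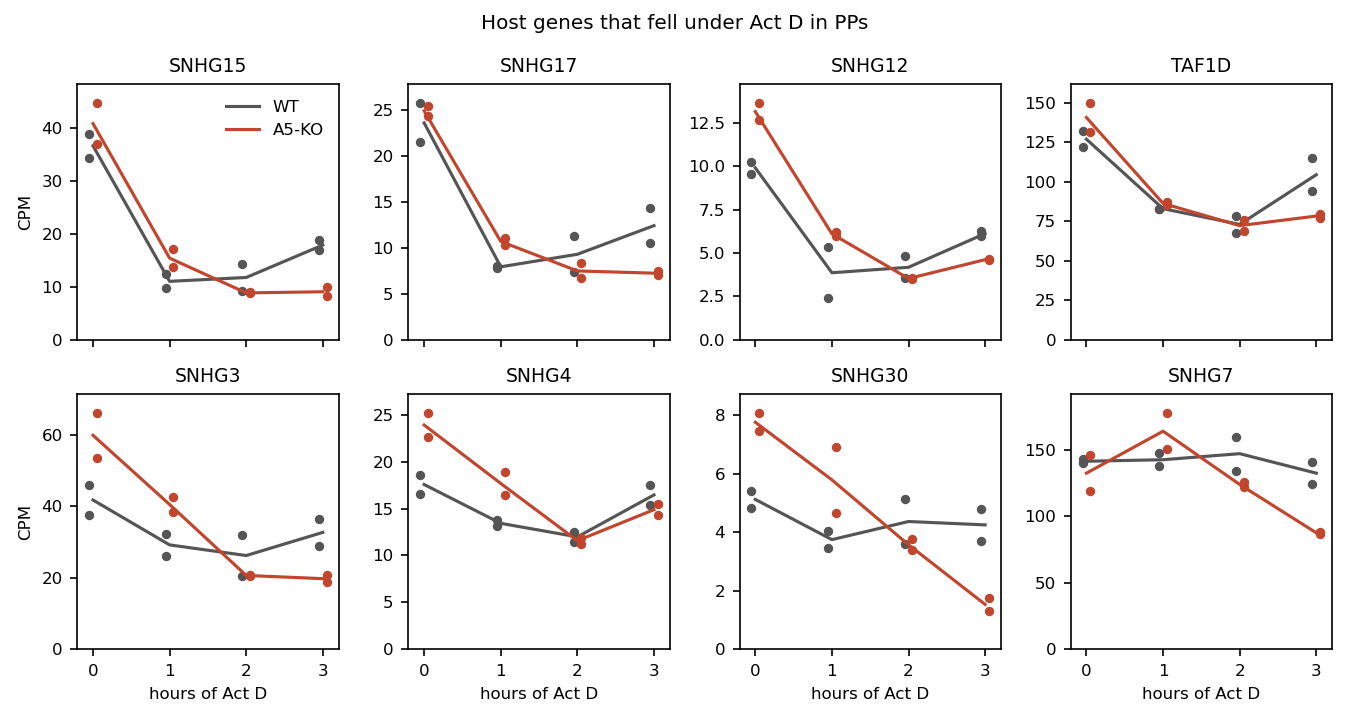
CPM of 8 host genes in PPs (vertical axes, from 0) against hours of Act D (horizontal axes), with each point 1 library and lines through the mean of 2 libraries, WT in grey and A5-KO in red. SNHG15, SNHG17, SNHG12 and TAF1D dropped in the first hour in both genotypes, and at 3 h both A5-KO libraries lay below both WT libraries for each gene shown except SNHG4.

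After 3 h the genotypes gave different numbers. In WT, 2 of the 25 hosts, SNHG15 and SNHG17, were lower than at 0 h and none was called higher, against 9.37% of all genes lower and 0.441% higher. At an unadjusted p below 0.05 in limma 596 of 13620 genes and 1 host were higher in WT, and edgeR and DESeq2 called 0 hosts higher. The WT count was 0 without WT 0 h replicate 1, 1 without WT 3 h replicate 1 and 4 without either WT 2 h library, the pair of replicates that differed most. In A5-KO, 11 hosts were lower: SNHG30, SNHG15, SNHG17, SNHG3, SNHG12, SNHG20, SNHG26, SNHG10, TAF1D, SNHG4 and SNHG7. The calls of TAF1D, SNHG4 and SNHG7 were lost under median-of-ratios scaling, edgeR and DESeq2, and that of SNHG20 was lost in 7 of 22 alternatives, among them each A5-KO library at 0 or 3 h left out. SNHG26 lost its call without A5-KO 0 h replicate 1 or A5-KO 3 h replicate 2. SNHG19, the host of SNORD60, was higher, and that call was lost without A5-KO 0 h replicate 1. With the other A5-KO 0 h library or A5-KO 3 h replicate 1 left out, 2 and 3 hosts were higher. Over all genes 32.0% were called lower and 2.53% higher in A5-KO at 3 h. The median log2 change was -0.33 for the hosts, -0.25 for all genes, 0.45 for 77 cytosolic ribosomal protein genes, -0.17 for 152 other genes that span a SNORA or SNORD gene and -0.39 for 800 other lncRNA genes. In WT at 3 h the same medians were -0.09, -0.10, 0.17, -0.01 and -0.13.

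The split between lower and higher depended on the scale. Under median-of-ratios scaling, which puts the median gene near no change, the median of all genes in A5-KO at 3 h moved from -0.25 to 0.04, and 7 hosts were called lower and 6 higher. The hosts called higher were SNHG6, SNHG8, SNHG16, SNHG19, SNHG29 and ZFAS1, and edgeR and DESeq2 on the recovered reads named the same genes. Of all genes, 3204 were then called lower and 1751 higher, against 4358 and 345 on the deposited CPM. No host called on the deposited CPM changed direction under any alternative run. Leaving out a library of a group that a comparison does not use could not have changed the direction of that comparison.

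The difference between genotypes in the change from 0 to 3 h was tested itself. It was called for 4 of the 25 hosts, SNHG30, SNHG3, SNHG15 and SNHG4, all with the larger net fall from 0 h in A5-KO. None was called in the other direction, with 2 higher at an unadjusted p below 0.05 in limma and 0 called higher by edgeR or DESeq2. At that unadjusted limit 688 of 13620 genes were higher. Of all genes, 14.8% were called lower and 0.690% higher, so the share among the hosts was near the background. The median difference was -0.14 for the hosts and -0.19 for all genes. ALKBH5 itself changed by -1.89 from 0 to 3 h in WT (adjusted p = 1.43e-05 in limma under median-of-ratios scaling). In A5-KO its change was -0.92, and the difference was 0.96 (adjusted p = 0.0123 in limma) on the same scale. The part of this loss of ALKBH5 in WT in the host differences at 3 h was not tested. The count was 2 without WT 0 h replicate 2 or without A5-KO 3 h replicate 2, and 6 without WT 3 h replicate 1.

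SNHG30, the host of SNORD7 (ENSG00000267321, chromosome 17, 35568050 to 35574900, plus strand), had the largest difference of the hosts. In WT PPs SNHG30 was at 4.82 and 5.42 CPM at 0 h, 3.46 and 4.03 CPM at 1 h, 3.59 and 5.14 CPM at 2 h and 3.70 and 4.803 CPM at 3 h. The level in A5-KO was 7.45 and 8.08 CPM at 0 h, 4.66 and 6.92 CPM at 1 h, 3.77 and 3.38 CPM at 2 h and 1.76 and 1.30 CPM at 3 h. WT stood at 83.0% of its 0 h level after 3 h and A5-KO at 19.7%. The log2 change in A5-KO was -2.29 (standard error 0.26, adjusted p = 2.04e-06) against -0.27 (standard error 0.26, adjusted p = 0.553) in WT, and the difference was -2.01 (standard error 0.36, adjusted p = 0.00240). At 0 h both A5-KO libraries were above both WT libraries, by 0.52 (standard error 0.16, adjusted p = 0.118), and at 3 h both were below. Between 41 and 276 reads lay behind each value. It was also the 1 host called in the difference of slopes over all 4 times, at -0.69 log2 per h (adjusted p = 0.0356), where 2.61% of all genes were called steeper in A5-KO and 0.0661% shallower. That call was lost in 14 of 24 alternatives, the replicate block among them (adjusted p = 0.0527 in limma).

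SNHG3 (ENSG00000242125, chromosome 1, 28505980 to 28510892, plus strand) holds SNORA73A and SNORA73B, H/ACA RNAs that act in the processing of ribosomal RNA. In WT PPs SNHG3 was at 45.8 and 37.6 CPM at 0 h, 26.0 and 32.3 CPM at 1 h, 20.4 and 31.9 CPM at 2 h and 28.9 and 36.5 CPM at 3 h. The A5-KO values were 66.1 and 53.6 CPM at 0 h, 38.4 and 42.5 CPM at 1 h, 20.7 and 20.5 CPM at 2 h and 20.7 and 18.7 CPM at 3 h. In A5-KO the level fell between 1 and 2 h and stayed there, at 34.5% and 32.9% of 0 h, while WT stood at 62.8% and 78.3%. The difference to 3 h was -1.24 (standard error 0.26, adjusted p = 0.00535) and was called in each alternative run. As for SNHG30, both A5-KO libraries at 0 h were above both WT libraries, by 0.51 (standard error 0.13, adjusted p = 0.0644) on the log2(CPM + 1) scale. SNHG3 shares 5.9% of its exon bases with RCC1 on the same strand.

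For SNHG15 the difference to 3 h was -1.13 (standard error 0.28, adjusted p = 0.0109). At 0 h its genotypes overlapped in level, and at 3 h they did not: 16.9 and 18.8 CPM in WT and 9.88 and 8.19 CPM in A5-KO. The adjusted p ranged from 0.00137 to 0.0704 over the alternatives, and the call was lost without WT 0 h replicate 2, without A5-KO 0 h replicate 1 and without A5-KO 3 h replicate 2.

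SNHG4, the host of SNORA74A, was the weakest of the called differences. In WT PPs SNHG4 was at 18.5 and 16.6 CPM at 0 h, 13.1 and 13.8 CPM at 1 h, 11.5 and 12.5 CPM at 2 h and 15.4 and 17.5 CPM at 3 h. A5-KO PPs gave 25.2 and 22.6 CPM at 0 h, 18.9 and 16.4 CPM at 1 h, 11.9 and 11.2 CPM at 2 h and 14.3 and 15.5 CPM at 3 h. The difference was -0.59 (standard error 0.19, adjusted p = 0.0444) and its call was lost in 16 of 23 alternatives, the replicate block among them (adjusted p = 0.0536 in limma). Both A5-KO libraries of SNHG4 were above both WT libraries at 0 h, by 0.42 (standard error 0.13, adjusted p = 0.104 in limma) on the log2(CPM + 1) scale. At 3 h the genotypes overlapped in level. The exons of SNHG4 overlap those of MATR3 on the same strand by 14.0% of their length.

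TAF1D and SNHG7 had an adjusted p below 0.05 in this difference with a size under 1.5-fold, TAF1D at -0.55 (standard error 0.15, adjusted p = 0.0172) and SNHG7 at -0.49 (standard error 0.16, adjusted p = 0.0398). SNHG7, which holds SNORA17A and SNORA17B, had a course of its own. In WT PPs SNHG7 was at 143 and 140.0 CPM at 0 h, 138 and 148 CPM at 1 h, 134 and 160.2 CPM at 2 h and 125 and 141 CPM at 3 h. In A5-KO PPs it was at 119 and 146 CPM at 0 h, 150.5 and 178 CPM at 1 h, 126 and 122 CPM at 2 h and 86.7 and 88.6 CPM at 3 h. At 1 and 2 h the libraries overlapped those at 0 h or, in A5-KO at 1 h, lay above them. At 3 h both A5-KO libraries were below all 14 others, and the change from 0 h was -0.59 (standard error 0.11, adjusted p = 0.000330). Under median-of-ratios scaling it was -0.30 and not called, and the call was lost in 6 of 23 alternatives. The opposite-strand gene DIPK1B overlaps 30.3% of its exon bases, and whether reads were counted by strand was not given in the sources used here.

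Of the 10 hosts with the most reads, the other 8 (SNHG29, GAS5, SNHG1, NOP56, SNHG16, SNHG14, DANCR and SNHG8) were not called in any PP comparison on the deposited CPM. SNHG29 is the leading host by reads. In WT PPs SNHG29 was at 432 and 463 CPM at 0 h, 501 and 494 CPM at 1 h, 553 and 463 CPM at 2 h and 462 and 511 CPM at 3 h. The level in A5-KO was 388 and 421 CPM at 0 h, 442 and 476 CPM at 1 h, 512 and 517 CPM at 2 h and 543 and 579 CPM at 3 h. The A5-KO change to 3 h was 0.47 (standard error 0.09, adjusted p = 0.000233), under 1.5-fold, and every A5-KO library at 3 h was above those at 0 h. In WT the change was 0.12 (standard error 0.09, adjusted p = 0.407).

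GAS5, named for its accumulation in growth-arrested cells and a classic target of nonsense-mediated decay, showed no called change. In WT PPs GAS5 was at 347 and 372 CPM at 0 h, 397 and 401 CPM at 1 h, 406 and 314 CPM at 2 h and 393 and 404 CPM at 3 h. The A5-KO values were 323 and 347 CPM at 0 h, 338 and 412 CPM at 1 h, 385 and 398 CPM at 2 h and 373 and 396 CPM at 3 h. The largest of its log2 changes to 1 and 3 h was 0.20, in A5-KO at 3 h (adjusted p = 0.133), and the lowest of its 16 values was the second WT library at 2 h.

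SNHG1, a host of 8 box C/D snoRNAs, was lowest at 2 h in both genotypes, a time for which no test was run. In WT PPs SNHG1 was at 195 and 190.0 CPM at 0 h, 219.5 and 213 CPM at 1 h, 179 and 167 CPM at 2 h and 201 and 229 CPM at 3 h. A5-KO PPs gave 205 and 203 CPM at 0 h, 238 and 252 CPM at 1 h, 184 and 188 CPM at 2 h and 221 and 202 CPM at 3 h. Every library at 2 h was below every library at 0, 1 and 3 h of its genotype. The change to 3 h was 0.16 (standard error 0.08, adjusted p = 0.201) in WT and 0.05 (standard error 0.08, adjusted p = 0.603) in A5-KO.

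NOP56 encodes a core protein of box C/D snoRNPs and carries snoRNAs of both classes. In WT PPs NOP56 was at 195 and 197 CPM at 0 h, 148 and 149.6 CPM at 1 h, 147 and 165 CPM at 2 h and 169.7 and 189.5 CPM at 3 h. In A5-KO PPs it was at 227 and 235 CPM at 0 h, 185 and 201 CPM at 1 h, 145 and 154 CPM at 2 h and 185 and 170.3 CPM at 3 h. It was lower at 1 h in both genotypes with a log2 change of -0.40 (standard error 0.08, adjusted p = 0.00266) in WT and -0.26 (standard error 0.08, adjusted p = 0.0241) in A5-KO, each under 1.5-fold. In WT it stood at 91.7% of 0 h after 3 h, and in A5-KO at 76.8%.

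SNHG16 and SNHG14 are box C/D hosts, and SNHG14 is the long transcript from the imprinted Prader-Willi region that carries the SNORD115 and SNORD116 arrays. In WT PPs SNHG16 was at 177 and 163 CPM at 0 h, 166 and 197 CPM at 1 h, 215 and 185 CPM at 2 h and 173 and 169 CPM at 3 h. The level in A5-KO was 146 and 163 CPM at 0 h, 154 and 145 CPM at 1 h, 171 and 182 CPM at 2 h and 198 and 186 CPM at 3 h. Both A5-KO libraries of SNHG16 were below both WT libraries at 1 and 2 h and above them at 3 h. In WT PPs SNHG14 was at 153 and 147 CPM at 0 h, 168 and 157 CPM at 1 h, 177 and 164 CPM at 2 h and 161 and 163 CPM at 3 h. The A5-KO values were 179.8 and 153 CPM at 0 h, 157 and 133 CPM at 1 h, 173 and 176 CPM at 2 h and 198 and 191 CPM at 3 h. Both A5-KO libraries of SNHG14 were at their highest at 3 h. Its change to 3 h was 0.23 (standard error 0.09, adjusted p = 0.0432) in A5-KO and 0.11 (standard error 0.09, adjusted p = 0.486) in WT.

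DANCR, first described as a repressor of progenitor differentiation, and SNHG8 hold 1 H/ACA snoRNA gene each. In WT PPs DANCR was at 95.8 and 95.4 CPM at 0 h, 98.4 and 95.5 CPM at 1 h, 99.3 and 96.8 CPM at 2 h and 104 and 106 CPM at 3 h. A5-KO PPs gave 105 and 112 CPM at 0 h, 109 and 124 CPM at 1 h, 107 and 102 CPM at 2 h and 122 and 111 CPM at 3 h. DANCR thus ran from 95.4 to 124 CPM over all 16 libraries. In WT PPs SNHG8 was at 72.7 and 71.3 CPM at 0 h, 89.4 and 92.3 CPM at 1 h, 85.9 and 79.6 CPM at 2 h and 84.4 and 87.6 CPM at 3 h. In A5-KO PPs it was at 68.2 and 68.7 CPM at 0 h, 81.2 and 99.3 CPM at 1 h, 98.4 and 107 CPM at 2 h and 93.0 and 103 CPM at 3 h. All SNHG8 libraries after Act D were above all libraries at 0 h, and its change to 3 h was 0.51 (standard error 0.10, adjusted p = 0.000308) in A5-KO and 0.26 (standard error 0.10, adjusted p = 0.0929) in WT. PRSS12 on the other strand overlaps 37.6% of its exon bases.

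The remaining tested hosts, SNHG6, ZFAS1, SNHG5, EPB41L4A-AS1, SNHG19, SNHG11 and SNHG26, stood at 81.2% to 125% of their 0 h level after 3 h in WT and at 44.03% to 183% in A5-KO, with SNHG26 lowest and SNHG19 highest in both. SNHG5 moved least, from 44.3 to 54.8 CPM over the 16 libraries. Opposite-strand genes overlap 58.9% of the exon bases of SNHG6 (MCMDC2) and 51.2% of those of EPB41L4A-AS1 (EPB41L4A), so that without strand part of their reads could come from the partner.

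**Figure D2:**
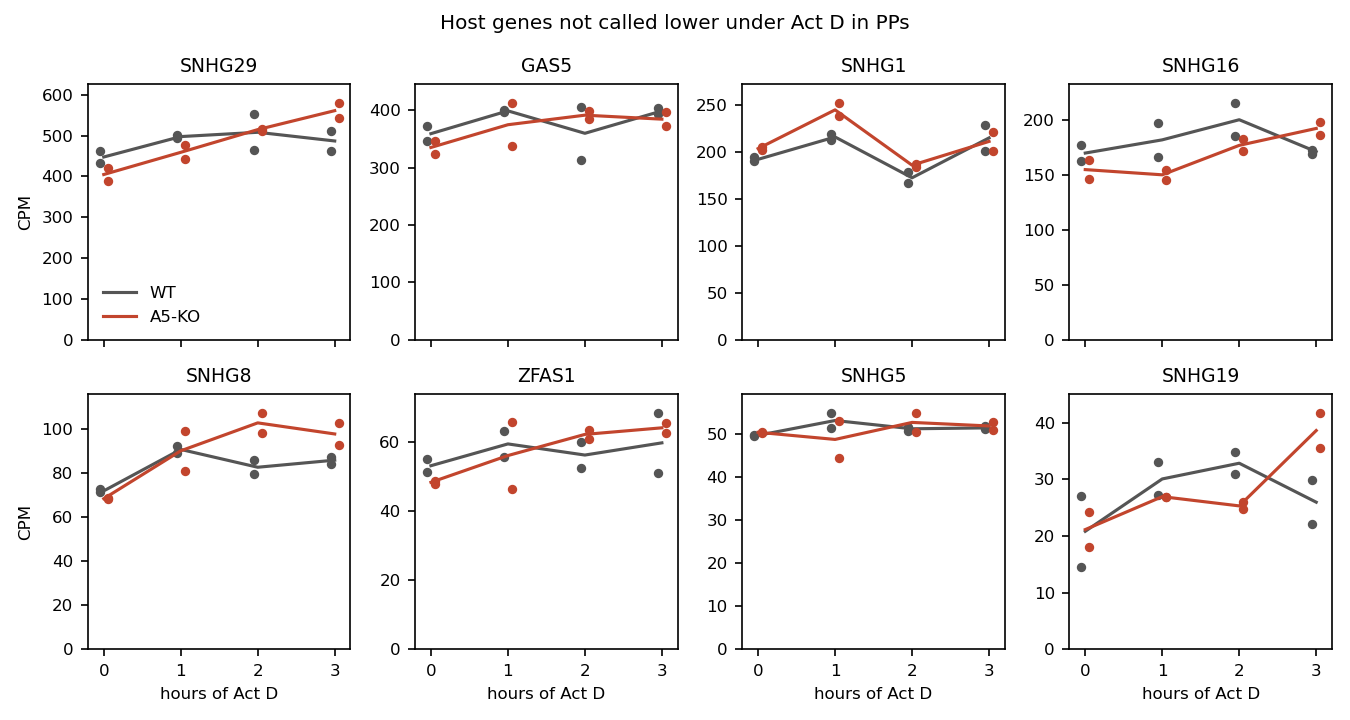
CPM of 8 host genes in PPs (vertical axes, from 0) against hours of Act D (horizontal axes), with each point 1 library and lines through the mean of 2 libraries, WT in grey and A5-KO in red. None of the 8 was called lower, SNHG1 was lowest at 2 h in both genotypes, and the A5-KO means of SNHG29, ZFAS1 and SNHG19 were highest at 3 h.

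The hosts were also counted by snoRNA class, a split chosen after the courses were seen, with few members in each class and no test. The shares of all genes called lower were 15.4% (WT, 1 h), 17.1% (A5-KO, 1 h), 9.37% (WT, 3 h) and 32.0% (A5-KO, 3 h). None of the 10 tested hosts with box C/D snoRNAs only was called lower at 1 h, in WT or in A5-KO, and their median log2 change was 0.13 in WT and 0.06 in A5-KO. Of the 11 hosts with H/ACA snoRNAs or scaRNAs only, 4 fell in WT and 3 in A5-KO, with medians of -0.41 and -0.44. Of the 4 hosts with both, 2 fell in each genotype, SNHG12 and TAF1D. In WT at 3 h, 0 of 10, 2 of 11 and 0 of 4 fell in these 3 classes, with medians of 0.12, -0.14 and -0.21. In A5-KO at 3 h, 2 of the 10 box C/D hosts fell, SNHG30 and SNHG26, as did 7 of the 11 and 2 of the 4, and the medians were 0.27, -0.68 and -0.61. Under median-of-ratios scaling the 3 medians at 3 h in A5-KO were 0.56, -0.39 and -0.32, in the same order. The 6 hosts with the highest mean CPM all hold box C/D snoRNAs, and the part of level in this order was not tested.

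**Figure D3:**
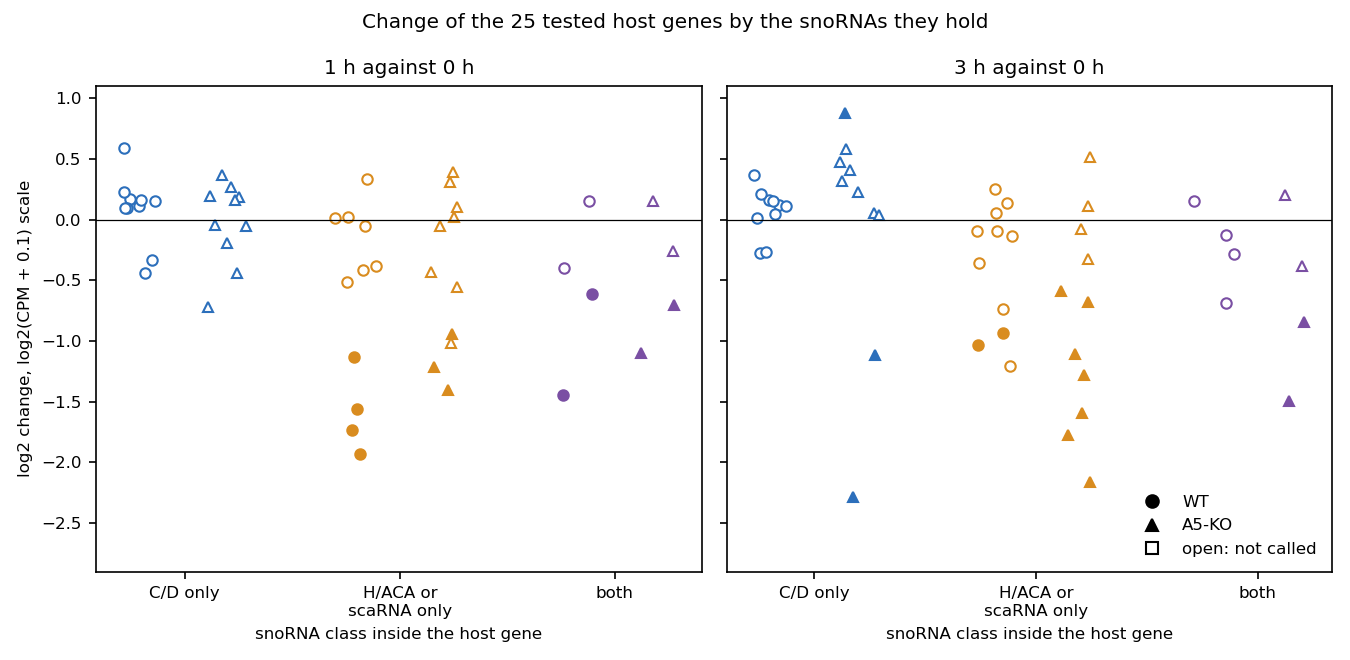
Log2 change of CPM + 0.1 from 0 h (vertical axis) after 1 h (left) and 3 h (right) for the 25 tested hosts, grouped by the snoRNAs inside them, with circles for WT, triangles for A5-KO and filled symbols for called changes. Every filled symbol at 1 h belongs to a host of H/ACA snoRNAs or scaRNAs, and at 3 h SNHG30 and SNHG26 are the box C/D hosts called lower.

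The proteins that assemble with snoRNAs were followed beside the hosts. Of 14 tested snoRNP proteins and assembly factors, 3 fell in WT at 1 h (15.4% of all genes were lower), 3 in A5-KO at 1 h (17.1% of all genes) and 0 in WT at 3 h (9.37% of all genes), and in A5-KO at 3 h 6 fell and 1 rose (32.0% and 2.53% of all genes). For WT at 3 h, 4 were lower and 0 higher at an unadjusted p below 0.05 in limma, beside 3118 and 596 of 13620 genes. NUFIP1, an assembly factor of box C/D snoRNPs, changed by -2.31 (standard error 0.25, adjusted p = 1.12e-06) in A5-KO at 3 h, and its difference between genotypes was -1.69 (standard error 0.35, adjusted p = 0.00427). GAR1, a core H/ACA protein, changed by -1.31 (standard error 0.17, adjusted p = 1.06e-05), and NAF1, an H/ACA assembly factor, by -1.09 (standard error 0.15, adjusted p = 1.54e-05). The 1 that rose was NHP2, a core H/ACA protein named here after its value was seen, by 0.59 (standard error 0.13, adjusted p = 0.00142). The difference between genotypes to 3 h was called for 3 of the 14, NUFIP1, GAR1 and NAF1, all lower in A5-KO, a share of 21.4% beside the 14.8% of all genes. Under median-of-ratios scaling, edgeR and DESeq2, NAF1 lost this call and NHP2 was called higher. The NHP2 difference was 0.77 under median-of-ratios scaling (adjusted p = 0.0114 in limma).

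Factors of nonsense-mediated decay, the pathway that removes transcripts such as GAS5, were read in the same way. Of 14 tested, 1 fell in WT at 1 h, 4 in A5-KO at 1 h, 1 in WT at 3 h and 3 in A5-KO at 3 h, and none rose. Beside these, 15.4%, 17.1%, 9.37% and 32.0% of all genes were called lower. The 4 of 14 in A5-KO at 1 h (28.6%) was a larger share than that of all genes. The 3 of 14 in A5-KO at 3 h (21.4%) was a smaller share, as was the 7.14% in WT at 1 h and at 3 h. With 14 factors each share rests on few genes, and its difference from that of all genes was not tested. In WT the 1 was SMG8, a regulator of the kinase SMG1, with a change of -1.55 (standard error 0.24, adjusted p = 0.000292) at 1 h. In A5-KO at 3 h SMG8 changed by -2.91 (standard error 0.24, adjusted p = 1.14e-07), UPF2, a core factor, by -0.98 (standard error 0.11, adjusted p = 2.59e-06) and CASC3, a part of the exon junction complex, by -0.80 (standard error 0.16, adjusted p = 0.000406). The call of CASC3 was lost under median-of-ratios scaling, edgeR and DESeq2, and those of SMG8 and UPF2 were kept. SMG8 was also the 1 of the 14 called in the difference between the genotypes to 3 h, at -1.65 (standard error 0.34, adjusted p = 0.00445).

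Before Act D, no host differed between the genotypes by the call. Over 13911 genes tested at 0 h, 1.13% were called lower and 1.57% higher in A5-KO. At an unadjusted p below 0.05, 0 hosts were lower and 5 higher, namely SNHG3, SNHG30, SNHG4, NOP56 and SNHG12, with log2 differences of 0.51, 0.52, 0.42, 0.24 and 0.38. Of all 13911 genes, 1153 were lower and 1531 higher at that unadjusted limit in limma. edgeR and DESeq2 on the recovered reads also called 0 hosts.

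In hILOs, 28 of the 34 hosts averaged 1 TPM or more. SNHG29 was the highest at a mean of 442 TPM, followed by SNHG32 at 300.1, SNHG6 at 214, ZFAS1 at 183, GAS5 at 165, NOP56 at 154, DANCR at 143 and SNHG1 at 126 TPM. At the low end stood SNHG20 at 5.44, SNHG21 at 4.67 and SNHG25 at 2.82 TPM. In A5-KO alone SNHG29, at a mean of 141 TPM, came after SNHG32, ZFAS1, SNHG6 and NOP56. SNHG32 lay above SNHG6 in all libraries, whereas from SNHG6 down to SNHG1 each host overlapped the next in the order.

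In hILOs 1 host was called between the genotypes. SNHG29 (ENSG00000175061, chromosome 17, 16438767 to 16480249, plus strand) was at 902 and 584 TPM in WT hILOs and 153 and 129 TPM in A5-KO hILOs, a log2(TPM + 1) difference of -2.36 (standard error 0.23, adjusted p = 0.0123). Both A5-KO libraries were below both WT libraries, and the WT libraries themselves differed by more than 1.5-fold. Of 17300 genes tested, 4.09% were called lower and 2.70% higher. At an unadjusted p below 0.05 in limma 2106 of these genes and 2 hosts were higher, and 0 hosts were called higher. The call was lost when either A5-KO library was left out (0 hosts called), and 2 hosts were called without WT replicate 1. In PPs at 0 h the difference was -0.15 (standard error 0.07, adjusted p = 0.317), with A5-KO again below WT in every library.

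SNHG29 carries 3 box C/D snoRNA genes that lie wholly inside annotated exons of SNHG29 itself, so its TPM and theirs can draw on the same reads. The pair of SNORD49 paralogues is shown because their rows did not follow the host, so the choice was made by outcome. The remaining gene, SNORD65, is not given here, and the pair does not speak for it. Capitals mark the first TGATGA, the heart of box C, and the last CTGA, box D, on the transcript strand; the motifs do not overlap in these sequences, which come from GENCODE v44 on GRCh38.
SNORD49B, chr17:16439505-16439576, plus strand: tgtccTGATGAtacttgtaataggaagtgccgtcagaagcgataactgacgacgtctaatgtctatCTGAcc
SNORD49A, chr17:16440036-16440106, plus strand: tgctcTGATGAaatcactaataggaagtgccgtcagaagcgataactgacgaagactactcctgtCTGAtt
Of 313 annotated SNORD transcripts, 59.1% hold TGATGA within their first 15 bases and CTGA within their last 15. SNORD49B was at 323 and 321 TPM in WT hILOs and 283 and 334 TPM in A5-KO hILOs hILOs, and SNORD49A at 20.2 and 22.2 TPM in WT hILOs and 22.7 and 14.2 TPM in A5-KO hILOs. The genotypes overlapped for each of the pair, whereas those of the host did not. These rows are of short RNAs in libraries not made for them.

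**Figure D4:**
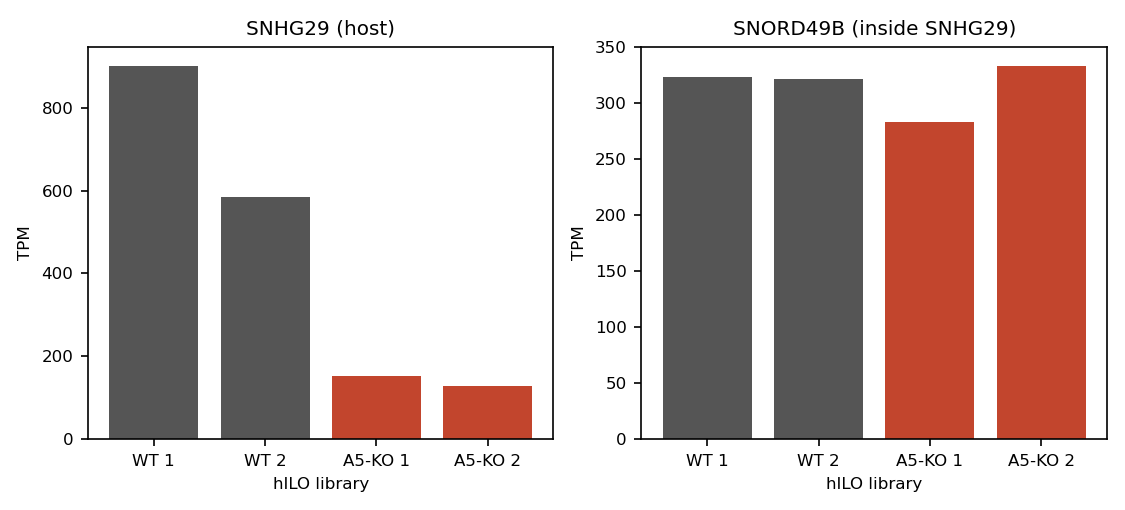
TPM (vertical axes, from 0) in the 4 hILO libraries for SNHG29 (left) and for SNORD49B, a box C/D snoRNA gene inside it (right), with 1 bar per library, WT in grey and A5-KO in red. Both A5-KO bars of SNHG29 lie below both WT bars, and those of SNORD49B lie on either side of WT.

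Other hosts high in TPM differed less. SNHG1 was at 146 and 143 TPM in WT hILOs and 106 and 108 TPM in A5-KO hILOs, a difference of -0.42 (standard error 0.04, adjusted p = 0.0112), which is under 1.5-fold. GAS5 was at 154 and 246 TPM in WT hILOs and 128 and 132 TPM in A5-KO hILOs, with a difference of -0.58 (standard error 0.23, adjusted p = 0.191). NOP56 was at 139 and 127 TPM in WT hILOs and 149 and 202 TPM in A5-KO hILOs, and its difference was 0.39 (standard error 0.16, adjusted p = 0.197). A5-KO lay below WT in both libraries for SNHG1 and GAS5 and above it for NOP56, and neither GAS5 nor NOP56 passed the test.
SNHG16 was at 76.2 and 85.0 TPM in WT hILOs and 55.2 and 69.1 TPM in A5-KO hILOs. SNHG7 was at 108 and 100.2 TPM in WT hILOs and 97.6 and 91.9 TPM in A5-KO hILOs. DANCR was at 164 and 155 TPM in WT hILOs and 134 and 119 TPM in A5-KO hILOs. For all these, and for TAF1D, the A5-KO values lay below those of WT. TAF1D was at 57.6 and 56.0 TPM in WT hILOs and 53.9 and 48.9 TPM in A5-KO hILOs. SNHG14 was at 6.37 and 11.9 TPM in WT hILOs and 4.33 and 6.91 TPM in A5-KO hILOs. SNHG8 was at 38.8 and 31.5 TPM in WT hILOs and 44.4 and 47.9 TPM in A5-KO hILOs. SNHG8 was higher in both A5-KO libraries and SNHG14 overlapped. None of these 6 was called, with adjusted p from 0.0664 for DANCR to 0.340 for SNHG14 in limma.
The hosts whose change to 3 h differed between the genotypes in PPs were not called in hILOs. SNHG15 was at 36.6 and 34.0 TPM in WT hILOs and 32.8 and 30.2 TPM in A5-KO hILOs. SNHG3 was at 16.2 and 19.0 TPM in WT hILOs and 18.8 and 19.7 TPM in A5-KO hILOs. The genotypes of SNHG3 overlapped, while A5-KO was lower in both libraries for SNHG15, SNHG4 and SNHG30. SNHG4 was at 7.59 and 7.01 TPM in WT hILOs and 4.84 and 4.83 TPM in A5-KO hILOs. SNHG30 was at 12.3 and 10.5 TPM in WT hILOs and 9.68 and 8.25 TPM in A5-KO hILOs. The median difference was -0.14 for the 28 hosts, -0.06 for all genes and -0.32 for 80 ribosomal protein genes.
Of 15 snoRNP proteins and assembly factors, 2 fell in hILOs, where 4.09% of all genes were called lower. FBL, the methyltransferase of box C/D snoRNPs, differed by -0.70 (standard error 0.09, adjusted p = 0.0214), and RUVBL1, an ATPase of the assembly machinery, by -0.69 (standard error 0.10, adjusted p = 0.0275). None of the 14 nonsense-mediated decay factors was called, with 3 lower and 0 higher at an unadjusted p below 0.05 in limma. At that unadjusted limit 3238 of 17300 genes were lower and 2106 higher.

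**Figure D5:**
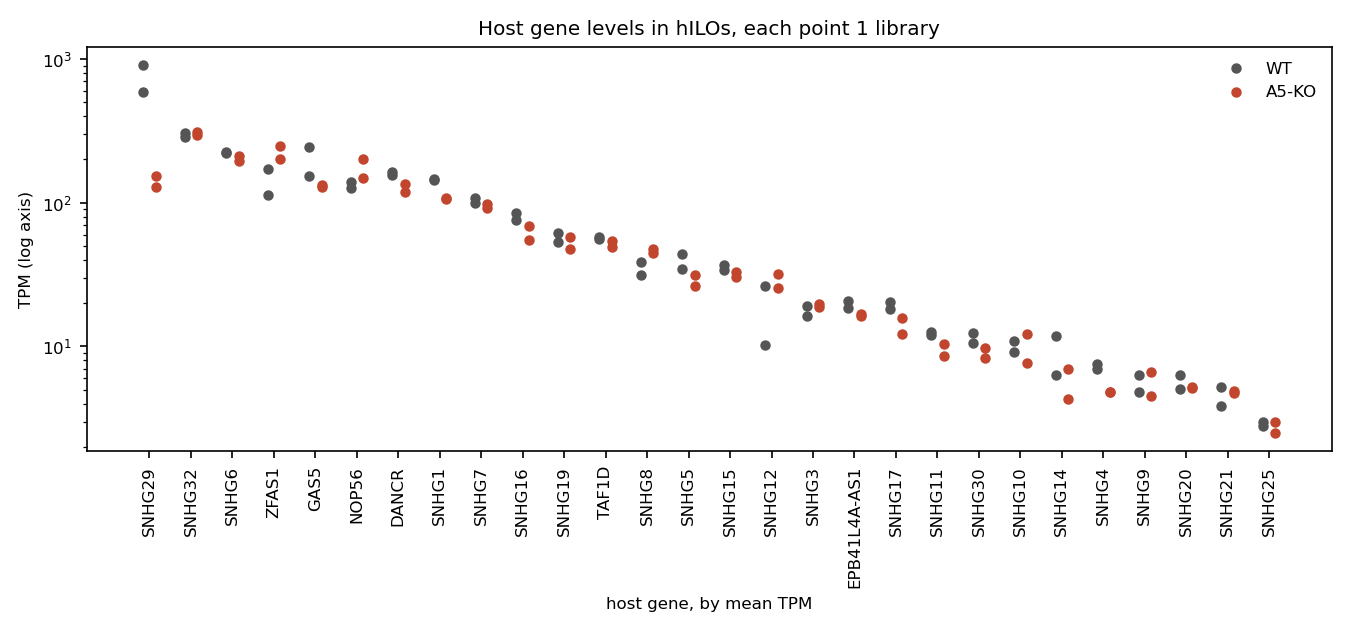
TPM on a log axis (vertical) of the 28 hosts that averaged 1 TPM or more in hILOs, ordered by mean (horizontal), with each point 1 library, WT in grey and A5-KO in red. SNHG29 shows the widest gap between the genotypes, and for most other hosts the 4 libraries lie close together.

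Some rows differ between the PP and hILO tables beyond what either table alone can show. SNHG32 (ENSG00000204387, chromosome 6, 31834608 to 31839766, plus strand) was at 308 and 288 TPM in WT hILOs and 294 and 310.1 TPM in A5-KO hILOs hILOs but at 0 to 0.292 CPM in the 16 PP libraries. Of its 43 neighbours within 300000 bases that had a mean of at least 5 TPM in hILOs, 39 had a mean below 1 CPM in PPs, against 16.3% of the 12090 genes of that hILO level in the whole table. The PP value of SNHG32 was for that reason not read as a level. Of 84 snoRNA genes lying wholly inside an annotated exon of a member, 82 were at 0 in all 16 PP libraries, and 73 were above 0 in at least 1 hILO library. The PP values of SNORA and SNORD genes inside members were for that reason not compared.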

How the data were processed

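RNA-seq of 16 PP and 4 hILO libraries was used; the sample labels give genotype, time and replicate. The authors deposited CPM for PPs after removing ERCC spike-ins and TPM for hILOs from StringTie; per the labels, reads were trimmed with fastp and aligned to hg38 with HISAT2 (2.1.0). The counter behind the CPM and its strand setting are not given in the sources used here. The CPM were whole multiples of 1 read for at least 99.9951% of values (tolerance 0.01).

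limma (3.58.1, R 4.3.3; eBayes with a trend) was fitted across all genes averaging 1 CPM or TPM or more: log2(CPM + 0.1) with a mean per genotype and time, or with a slope per genotype, over 16 PP libraries; log2(CPM + 1) over those at 0 h; and log2(TPM + 1) in hILOs. Fold changes are on these scales, which understate the change of low genes. Calls needed an adjusted p below 0.05 and, except for slopes, over 1.5-fold. Alternatives were the pseudocount, the filter, median-of-ratios scaling, the replicate block, each library left out, fewer times, all PP libraries for 0 h, and edgeR (4.0.16) and DESeq2 (1.42.0) on recovered reads. The code was tested on simulated data. The study describes its RNA-seq replicates as biological; the labels do not say which cultures were separate, and p-values measure the spread between these libraries.

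Values in every library are given for the 10 hosts with the highest mean CPM and those called between genotypes; from the snoRNP and decay factor lists at most 4 genes with the largest called change are named. Members and lists were chosen with earlier results of these data known. Spans and overlaps come from GENCODE v44 on GRCh38, start sequences from RefSeq (GRCh38.p14).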

Additional observations from a re-analysis of the deposited data

Results flagged for a closer look

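For 4 hosts the change from 0 to 3 h of Act D differed between the genotypes by the test of the difference itself (A5-KO minus WT, log2): SNHG30 at -2.01, SNHG3 at -1.24, SNHG15 at -1.13 and SNHG4 at -0.59. SNHG30 also differed in slope, at -0.69 log2 per h.

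For 7 of the 24 hosts tested at both stages both A5-KO libraries lay on one side of both WT libraries in PPs at 0 h and on the other side in hILOs; for 2 the order was the same. Of all 12729 genes tested at both stages, 15.0% had the opposite order and 17.2% the same. The difference between the stages was not tested. SNHG1 was at 0.083 in PPs and -0.42 in hILOs. DANCR was at 0.18 and -0.33. SNHG8 was at -0.072 and 0.39. ZFAS1 was at -0.13 and 0.68. SNHG5 was at 0.02 and -0.43. SNHG4 was at 0.42 and -0.51. SNHG30 was at 0.52 and -0.32. The PP values are on the log2(CPM + 1) scale and the hILO values on the log2(TPM + 1) scale, and of these 14 differences only that of SNHG1 in hILOs had an adjusted p below 0.05 in limma.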

How the results depend on the processing

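Of 31 called host results, 623 of 695 values under the alternatives kept the call, 72 lost it and 0 changed direction. Leaving out a library of a group that a comparison does not use keeps the estimate of that comparison and alters only its spread. Values of this kind could not have changed direction, and the tally above includes them. The counts that moved by over 1.5 times were these. In A5-KO at 3 h, 7 hosts were lower under median-of-ratios scaling and with edgeR, and 6 were higher under both and with DESeq2. In WT at 1 h, 1 host was higher under median-of-ratios scaling, edgeR and DESeq2, SNHG19, and 1 with the replicate block. Hosts called steeper in A5-KO numbered 0 without a filter, with the replicate block or with 0 and 1 h only, 2 with edgeR or DESeq2, and 8 with 0 and 3 h only, where 1 was shallower. In hILOs 0 were lower without a filter.

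Leaving out 1 library at a time, the hosts called lower ranged from 4 to 6 (WT, 1 h), 3 to 6 (A5-KO, 1 h), 0 to 4 (WT, 3 h), 9 to 11 (A5-KO, 3 h), 2 to 6 (difference to 3 h), 0 to 2 (slope) and 0 to 2 (hILOs). Those called higher ranged from 0 to 1 in WT at 1 and 3 h, the difference to 3 h, the slope and PPs at 0 h, and from 0 to 3 in A5-KO at 3 h. The slope count was 0 without WT 0 h replicate 2, WT 1 h replicate 2, either WT or A5-KO 3 h library, either A5-KO 0 h or 2 h library, or A5-KO 1 h replicate 1, and 2 without WT 0 h or 2 h replicate 1. In PPs at 0 h 1 host was higher without WT replicate 1 or A5-KO replicate 2. A group left with 1 library was assumed to vary like the others. The study's methods say in general that wells of a biological replicate came from the same batch of cells, but not that the numbers in the labels follow it. Deviations of libraries with the same number correlated at -0.113 to 0.289 between genotypes and at -0.393 to 0.293 between times of a genotype. With 2 libraries per group, these values cannot decide whether the numbers pair the samples. The replicate block took the calls of SNHG30 in slope and of SNHG4 in the difference to 3 h (adjusted p = 0.0527 and 0.0536 in limma) and left 6, 5, 3 and 11 hosts lower in WT and A5-KO at 1 h and in WT and A5-KO at 3 h, 3 in the difference to 3 h and 1 in hILOs.

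With 2 libraries per group, and under 50 reads in some libraries for SNHG20, SNHG26 and SNHG30, small changes of low hosts were not detectable at this depth. TPM gives no depth.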
